A study of Homo sapiens with 40 samples.

Results

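The genes described here are those of the TRIM, RNF, FBX, KLHL and cullin families of ubiquitin ligase subunits. They were chosen by name alone: each gene whose identifier in the deposited set of transcript models begins with TRIM, RNF, KLHL or CUL and a digit, or with FBXL, FBXO or FBXW, with no punctuation in the name. This gave 122 of the 9460 genes and 247 of the 19972 transcript models. They comprised 23 TRIM, 45 RNF, 9 FBXL, 23 FBXO, 6 FBXW, 14 KLHL and 2 CUL genes. Another 5 names that begin alike but carry a hyphen (KLHL7-DT, RNF157-AS1, RNF32-DT, TRIM52-AS1 and TRIM7-AS2) were left out. A transcript model is 1 exon chain, with its first and last base and, where one was assigned, its coding region.

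The models come from a study of H9 cells, a human embryonic stem cell line, and of neural progenitor cells made from them by blocking both branches of SMAD signalling. No transgene, knockout or drug beyond that differentiation is named in the labels. RNA was taken from 4 fractions of each cell type, called cytosol, monosome, light polyribosome and heavy polyribosome, where light stands for 2 to 4 ribosomes per RNA and heavy for at least 5. In each of these 8 combinations of cell type and fraction there were 2 long-read and 3 short-read libraries of polyadenylated RNA, which makes 40 libraries in 16 groups. The models form a single catalogue for the whole study with no count or abundance per library, so no stem cell, progenitor or fraction values can be compared and no test was made. Sequencing depth is unknown from these values. Each share below stands beside the same share over all genes or all protein-coding genes where one is printed, with a 95% Wilson interval that covers counting error only.

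Ubiquitin ligases bring a ubiquitin-charged E2 enzyme to a substrate and so decide which proteins are marked. Most RNF and TRIM proteins carry a RING domain, which binds the E2 directly; TRIM proteins add B-box and coiled-coil domains and a variable C-terminal domain for the substrate. Cullins are scaffolds: at one end they hold a small RING protein (RBX1 or RBX2, the latter encoded by RNF7), and at the other an adaptor with a substrate receptor. F-box proteins (FBXL with leucine-rich repeats, FBXW with WD40 repeats, FBXO with others) are receptors on CUL1 through the adaptor SKP1, and most KLHL proteins join adaptor and receptor for CUL3 in a single chain. Several members are known from stem cells or neural tissue, among them TRIM71, a repressor of differentiation mRNAs, and TRIM28, a co-repressor that silences transposable elements.

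Of the 122 members, 18 (14.8%, 9.54 to 22.1%) had a first base within 1 kb of the first base of a gene on the other strand, pointing away from it; over all loci of the catalogue the share was 15.1%. FBXO2 and FBXO44 formed such a pair with each other, their first bases 136 nt apart. In 10 members the gap to the neighbour was at most 100 nt, the shortest being 13 nt between FBXL6 and SLC52A2. No share over all loci stands beside this count, so such short gaps are not shown to be particular to the members. Sequences between the starts are shown for 5 of the 10, picked after their values were seen to include RNF, KLHL and TRIM genes, because there a single short stretch separates the ligase gene from its neighbour. Each is written 5′ to 3′ on the strand of the member, from RefSeq, assembly GRCh38.p14; the build behind the models is not given, but their starts lie close to RefSeq's in it, as described further on. Capitals mark the first 10 bases of the neighbour's model (left, so transcribed away to the left from the other strand) and the first 10 bases of the member's model (right).
KLHL7 and KLHL7-DT, chr7:23105666-23105771, plus strand: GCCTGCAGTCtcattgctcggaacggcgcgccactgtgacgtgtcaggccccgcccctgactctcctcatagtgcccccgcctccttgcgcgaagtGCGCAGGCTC
RNF166 and CTU2, chr16:88706394-88706509, minus strand: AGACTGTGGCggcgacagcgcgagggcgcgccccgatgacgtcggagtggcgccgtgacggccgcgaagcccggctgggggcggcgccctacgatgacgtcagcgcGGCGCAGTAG
RNF167 and SLC25A11, chr17:4940037-4940090, plus strand: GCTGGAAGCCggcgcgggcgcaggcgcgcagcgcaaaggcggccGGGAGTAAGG
RNF41 and NABP2, chr12:56221911-56222024, minus strand: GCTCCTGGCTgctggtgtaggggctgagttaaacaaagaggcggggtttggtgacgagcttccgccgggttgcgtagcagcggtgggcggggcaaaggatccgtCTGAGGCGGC
TRIM52 and TRIM52-AS1, chr5:181261131-181261222, minus strand: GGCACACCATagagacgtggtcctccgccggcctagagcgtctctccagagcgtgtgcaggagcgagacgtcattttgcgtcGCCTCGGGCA
RNF167 and SLC25A11, which encodes a mitochondrial carrier, had the shortest gap of the 5, their first bases lying 35 nt apart. The RNF166 stretch held TGACGTCA, the cyclic AMP response element, and was the only 1 of the 5 with that match. Its GC content was 75.9%, against 64.1% at TRIM52, 64.9% at RNF41, 67.9% at KLHL7 and 77.8% at RNF167; FBXL20, not shown, had 81.25%. None of the 5 contained TATAAA on either strand.

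Of 267 protein-coding genes that RefSeq names in these families, 121 had a model (45.3%, 39.5 to 51.3%), against 42.4% of all 20050 protein-coding genes. The share differed among the families. It was 63.9% of FBXO genes (23 of 36), 60% of FBXW genes (6 of 10), 52.9% of FBXL genes (9 of 17) and 52.4% of RNF genes (44 of 84). It was 37.8% of KLHL genes (14 of 37) and 30.7% of TRIM genes (23 of 75, 21.4 to 41.8%). Of the 8 cullins, CUL1 and CUL2 had models, and CUL3, CUL4A, CUL4B, CUL5, CUL7 and CUL9 had none. Also without a model were FBXW7, the receptor for cyclin E and MYC; RNF20, which with RNF40 ubiquitinates histone H2B; RNF213; and the transcriptional co-regulators TRIM24 and TRIM33. RNF40 itself had 1 model of 1002 codons. A gene without a model is not thereby shown to be silent, since the catalogue held no model of 1 exon (0 of 19972) and none longer than 5877 nt. The longest member model was that of RNF216, at 4632 nt, and the member models had 2 to 24 exons. RNF216P1 was the single member that RefSeq types as a transcribed pseudogene; it resembles RNF216, and whether reads were placed at the right copy was not tested.

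The members had 2.02 ± 1.71 models per gene (SD, n = 122), with a median of 1, beside 2.11 ± 1.70 and a median of 2 over all 9460 genes. At least 2 models were present for 53 members (43.4%, 35.0 to 52.3%), against 51.1% of protein-coding genes. The other 69 members had 1 model. RNF genes led, with a mean of 2.56 ± 2.33 (SD, n = 45), and no TRIM gene passed 3 models (1.52 ± 0.67, n = 23). The most were 11 for RNF167, a membrane-bound ligase of endosomes and lysosomes, then 9 for RNF220, a nuclear ligase, and 7 each for RNF146, which ubiquitinates poly-ADP-ribosylated proteins such as axin, and FBXL12, a receptor of CUL1 complexes. RNF121, a ligase of the endoplasmic reticulum and Golgi, had 6. RNF135, RNF138, RNF181, RNF216P1 and FBXO7 had 5 each.

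**Figure D1:**
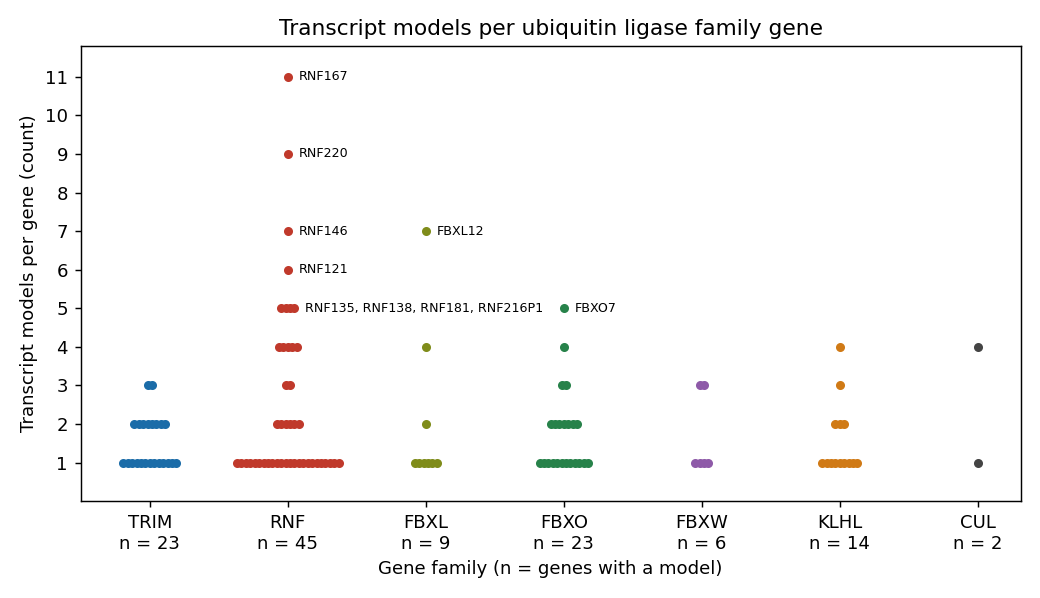
Transcript models per gene (vertical axis, count) for the 122 genes by family (horizontal axis); each point is 1 gene, and genes with 5 or more models are named. TRIM genes stay at 1 to 3 models, and RNF167 has the most, at 11.

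Medians of length over all member models were larger than those over models of all protein-coding genes in each part of the mRNA. The median length was 1908 nt, against 1605 nt for protein-coding genes. The median coding region had 343.5 codons against 292, the median 5′ untranslated region 189.5 nt against 145 nt, and the median 3′ untranslated region 624.5 nt against 428.5 nt. Coding regions ranged by family from a median of 272.5 codons in RNF models to 464 in TRIM, 575 in KLHL and 746 in CUL models. The RNF median lay below that of protein-coding genes, as did the median 5′ untranslated region of FBXO models, 119 nt. A coding region was assigned to 236 of the 247 models (95.5%, 92.2 to 97.5%), against 92.1% in protein-coding genes. RNF111, an activator of TGF-beta signalling, had only 1 model, of 650 nt and without a coding region. Some members were represented by a fragment: RNF31, the catalytic subunit of the linear ubiquitin assembly complex, had 122 codons and RNF123 had 86. Their models began 10082 and 30952 nt downstream of the nearest RefSeq start.

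Among the 50 members with at least 2 coding models, 46 (92.0%, 81.2 to 96.8%) had more than 1 coding region, against 85.1% of such protein-coding genes. Each other coding region of a gene was laid on its longest one to see which codons it kept in frame. The 80 other coding regions shared a median of 67.6% of the codons of the longest, and 26 of them less than 50%. Both ends were kept by 13 (16.2%; all genes 25.6%), so these differed inside. The start alone was kept by 31 (38.8%; all genes 32.9%) and the stop alone by another 31 (38.8%; all genes 33.5%). In 5 neither end was kept (6.25%; all genes 7.95%). Split at the midpoint of the longest, 14 coding regions kept at least 90% of the codons before it and under 50% of those after it, and 12 the reverse. In 2, 1 each of KLHL24 and RNF220, no codon was shared, as the coding regions lie at separate positions. The 80 came from 46 genes, some of which gave several. Shared codons were counted for members only, so the median and the counts of 26, 14 and 12 have no all-gene value beside them.

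**Figure D2:**
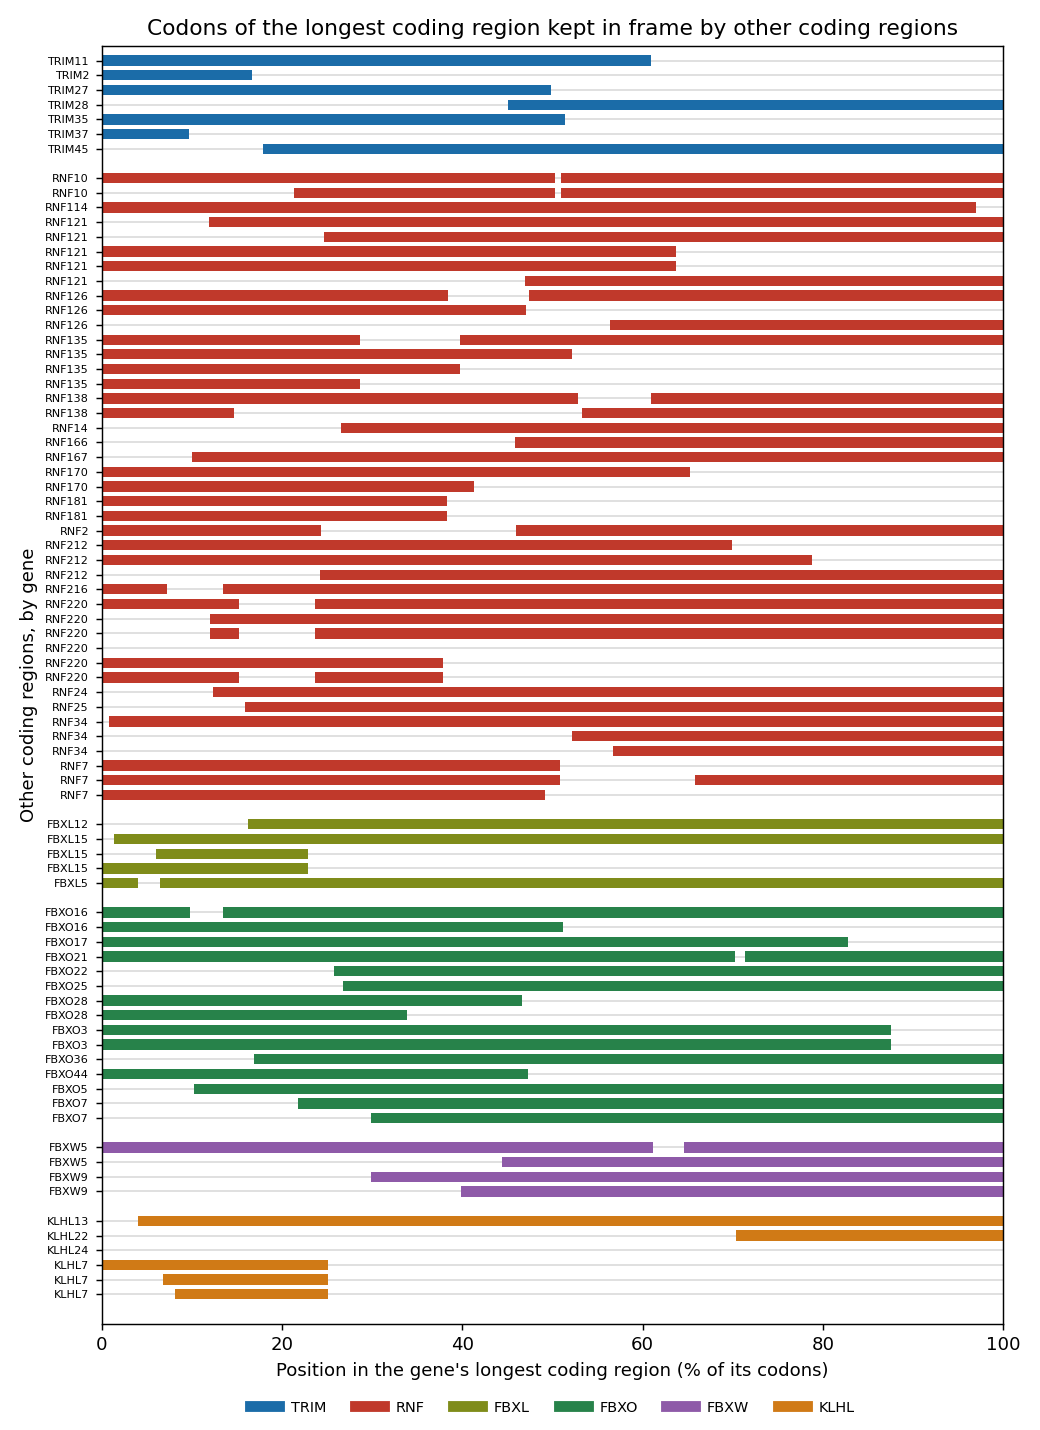
Codons of the longest coding region of each gene (horizontal axis, % of its codons) that the gene's other coding regions keep in frame; each line is 1 of 80 coding regions, coloured by family. Bars that begin at 0 and stop short keep the start, as in TRIM37, bars that reach 100 keep the stop, as in KLHL22, and an empty line shares no codon, as in KLHL24.

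In TRIM genes alternative last exons were the most frequent difference. No cassette exon, an internal exon that another model skips, was found in the 10 TRIM genes with at least 2 models (0 to 27.8%), while all genes had 49.4% of loci with one. Of these 10 genes, 8 had only 2 models and 2 had 3, so few models could be compared. An alternative last exon was present in 6 of the 10 (60%, 31.3 to 83.2%), against 27% of all loci. First or last exons counted as alternative wherever those of a gene's models did not overlap, also where whole models lay apart. The 6 include TRIM36, whose 2 models do not overlap. The 5 TRIM coding regions that kept the start of the longest and changed the stop, 1 in each of 5 genes, all ran into another last exon. TRIM37, a ligase that restrains centrosome assembly, kept the first 93 of 965 codons, in a form of 104. TRIM2, a ligase of neurons with a C-terminal NHL domain, kept 124 of 745, in 2 models of 137 codons. TRIM27 kept 256 of 514, TRIM35 254 of 494 and TRIM11 286 of 469; each of these 3 proteins has a C-terminal SPRY domain in its known full-length form. The short forms of TRIM27, TRIM35 and TRIM11 ended with 8, 22 and 100 codons of their own.

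TRIM28 (chr19:58544752-58550716) was the opposite case. Its shorter model, of 459 codons and 10 exons, began in another first exon and kept codons 378 to 836 of 836, while the longer model had 17 exons. The RING domain of the full protein lies near its start. The shorter coding region of TRIM45 kept codons 105 to 581 of 581, but both of its models began at the same base. The longer coding region started inside a 704 nt intron that its model retained. TRIM13, a ligase of the endoplasmic reticulum, had 3 models that shared 1 coding region of 408 codons and differed in 5′ untranslated regions of 193, 276 and 728 nt, the last with a retained intron. TRIM32, another NHL protein, had 2 models that differed by a 3 nt alternative 3′ splice site outside the coding region of 654 codons. TRIM36 paired a coding model of 717 codons with a noncoding one of 439 nt that lay wholly upstream of it. TRIM71 had 1 model, of 869 codons and 4452 nt, whose first base lay 1311 nt upstream of the nearest RefSeq start. TRIM69 had 1 model, whose coding region was 11 codons long and ended 163 nt upstream of the last junction.

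In RNF genes cassette exons were the most frequent difference. They were present in 16 of 21 RNF loci with at least 2 models (76.2%, 54.9 to 89.4%). Counting forms of an exon with different splice sites apart, 29 of the 43 cassette exons of all members were in RNF genes. A locus with more models offers more pairs in which an exon can be skipped. Only 6 of these 21 RNF genes had just 2 models, against 8 of the 10 TRIM genes. The shares and counts were not adjusted for this, and a difference between families was not tested. Alternative last exons were present in 5 of the 21 (23.8%, 10.6 to 45.1%). Across the 53 member loci with at least 2 models the shares stayed near those of all loci. A cassette exon was found in 49.1% (36.1 to 62.1%), an alternative 5′ splice site in 20.8% (all 25.2%), an alternative 3′ splice site in 28.3% (all 23.4%) and a retained intron in 15.1% (all 17.3%). An alternative first exon was found in 18.9% (all 18.0%) and an alternative last exon in 34.0% (22.7 to 47.4%; all 27%).

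**Figure D3:**
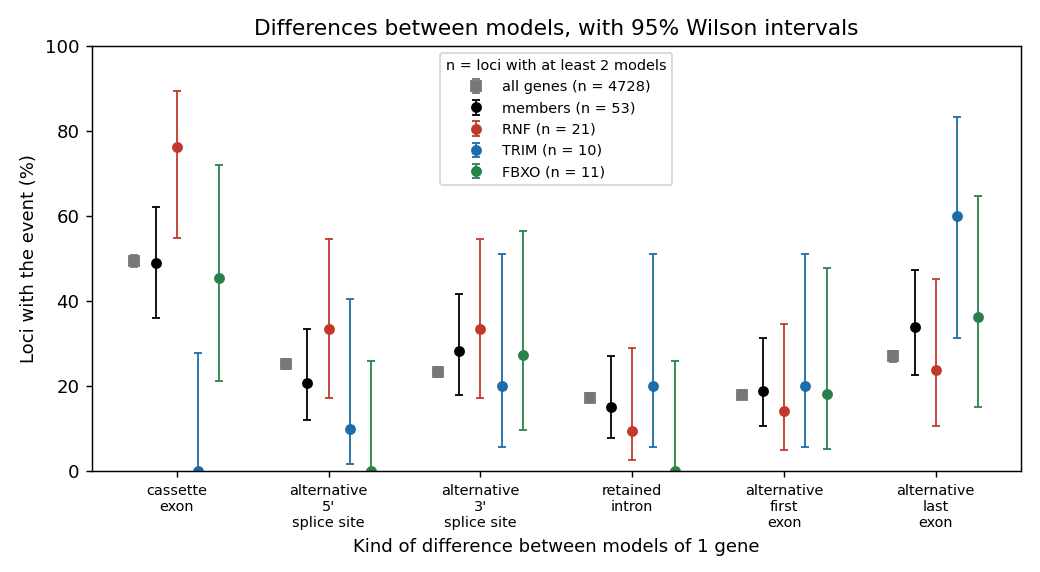
Loci with each kind of difference between models (vertical axis, % of loci with at least 2 models; bars are 95% Wilson intervals) for all genes, all members and the 3 families with the most such loci. The RNF point for cassette exons is at 76.2% and the TRIM point at 0%, and for alternative last exons the TRIM point, at 60%, is the highest. The shares are not adjusted for the number of models per locus, which differs among families.

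RNF2, the catalytic RING subunit of Polycomb repressive complex 1 (also called RING1B), had 2 models. The longer had 337 codons and the shorter 265, which kept codons 1 to 82 and 156 to 337. The difference is 1 cassette exon of 216 nt (chr1:185093061-185093276), a multiple of 3, so that frame and stop were kept. RNF138, a ligase of the DNA damage response, had 3 coding regions with the same start and stop. The form of 227 codons lacked a 57 nt cassette exon (chr18:32123518-32123574) and kept codons 1 to 130 and 151 to 246. The form of 152 codons, in 2 models, kept codons 1 to 36 and 132 to 246. Its 5 models came from 2 groups of first exons, and 3 of them began 765 to 826 nt downstream of the nearest RefSeq start.

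RNF135, which ubiquitinates the viral RNA sensor RIG-I, had 5 models that all kept the start codon. The longest had 433 codons; a form of 385 skipped a 144 nt exon (chr17:30984617-30984760) and kept codons 1 to 124 and 173 to 433. The other 3 ended early, with 287, 211 and 163 codons, of which 226, 172 and 124 were shared with the longest. RNF126, a partner of the chaperone BAG6, had coding regions of 312, 285, 149 and 136 codons in its 4 models. An 81 nt alternative 5′ splice site separated those of 312 and 285; the form of 149 kept codons 1 to 147, and the form of 136 kept codons 177 to 312. RNF34, an anti-apoptotic ligase, had forms of 374, 373, 181 and 164 codons that all kept the stop. RNF121 had 6 models with 6 coding regions, from 328 to 174 codons, of which 3 kept the stop and 2 the start of the longest. RNF181 had 3 coding regions, of 188, 154 and 139 codons, that shared the first 72, and 2 noncoding models. RNF10 lost 5 codons between a form of 803 and one of 798 by a 15 nt alternative 3′ splice site. RNF216, a ligase mutated in Gordon Holmes syndrome, lost codons 68 to 124 of 924 by a 171 nt alternative 3′ splice site, with the same stop.

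RNF220 (chr1:44405173-44651723) had 7 coding regions in 9 models. From the longest, of 309 codons, a 78 nt alternative 5′ splice site removed codons 48 to 73 (283 codons). A start at codon 38 gave 272 codons, and both changes together 246. Forms of 122 and 96 codons kept the start and ran into another last exon, with and without the same 78 nt. The seventh, of 238 codons, was in 1 model that ended at base 44419865, before the first base of the other models (44631968). That model shared no exon with the others, so its coding region shared no codon with the longest.

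RNF7 (chr3:141738277-141746401), the RBX2 subunit of cullin complexes, had 4 models with the same start codon. The longest coding region had 114 codons in 3 exons. Without the 48 nt middle exon (chr3:141743509-141743556) it had 98 codons and kept codons 1 to 58 and 76 to 114. An alternative 5′ splice site 7 nt away changed the frame, which left 91 codons, 56 of them shared. A model with an added 264 nt exon (chr3:141742644-141742907) stopped inside it after 109 codons, 58 of them shared, and that stop lay 160 nt upstream of the last junction. All 3 shorter forms kept codons 1 to 56 of the longest.

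RNF167 (chr17:4940081-4945221) held its differences in front of the coding region. Its 11 models had only 2 coding regions, of 351 codons in 7 models and of 316 in 4, and the same stop. In front of the longer, the 5′ untranslated region was 176, 298, 427, 551, 562, 692 and 829 nt long. In front of the shorter it was 160, 231, 366 and 462 nt. Where the first intron was removed, the first exon ended at 1 of 2 sites 130 nt apart, the second exon of 240 nt was used or skipped, and the introns around it were removed or retained. The shorter coding region, codons 36 to 351, went with a 3′ splice site 50 nt further on at the exon that holds the longer form's start codon, or with the skipping of that exon.

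**Figure D4:**
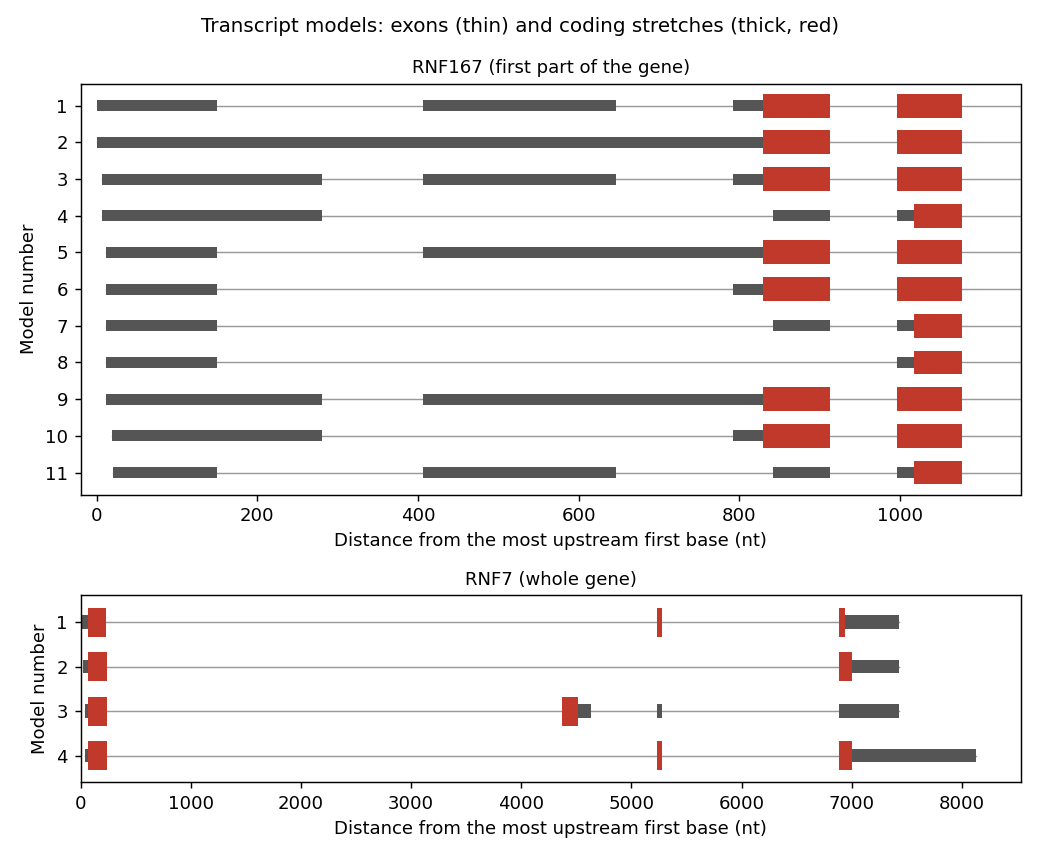
Exons (thin, grey) and coding stretches (thick, red) of the 11 RNF167 models, first part of the gene only, and of the 4 RNF7 models, whole gene; the horizontal axis is the distance in nt from the most upstream first base. RNF167 models differ upstream of a shared coding part, and RNF7 models share the start of the first coding exon and differ at its end or after it.

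RNF146 showed the same pattern in full: 7 models, 1 coding region of 359 codons, and 5′ untranslated regions from 182 to 598 nt (median 324 nt). CUL2, the scaffold of the von Hippel-Lindau complex, had 4 models with 1 coding region of 746 codons and 5′ untranslated regions of 179, 207, 302 and 460 nt, from 2 groups of first exons. CUL1 had 1 model of 777 codons. In FBXL12 6 of 7 models carried a coding region of 274 codons behind 102 to 399 nt, and the seventh carried 327 codons. In FBXO7, the receptor mutated in a juvenile parkinsonism, 3 of 5 models carried 367 codons behind 156, 459 and 508 nt. Together, 13 of the 50 members with at least 2 coding models (26.0%, 15.9 to 39.6%) had models that shared a coding region, against 35.5% of all such genes. In 8 of the 50 (16%, 8.34 to 28.5%; all genes 18.7%) the 5′ untranslated regions of those models differed by at least 100 nt.

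Among F-box genes, coding regions differed at the start, at the end or inside. FBXO7 had 3 coding regions with 1 stop: 523 codons, a form from codon 115 (409 codons) and a form from codon 157 (367 codons). FBXO22, whose longest form has 404 codons, had a second that began at codon 105 (300 codons); a 139 nt cassette exon (chr15:75904491-75904629) distinguished them. FBXO5, also known as EMI1, an inhibitor of the anaphase-promoting complex, had forms of 448 and 402 codons from 2 first exons. FBXW5 had 567, 549 and 315 codons and FBXW9 459, 342 and 296, all with the stop of the longest. FBXW11, a receptor for beta-catenin, had 1 model of 509 codons. In the FBXO family 7 of 15 other coding regions kept the start and changed the stop, and 6 of the 7 had another last exon. FBXO28 kept the first 172 or 125 of 369 codons, with 3 last exons in 3 models. FBXO3 kept the first 413 of 472 in 2 forms of 416 codons, each with its own last exon. FBXO17 kept 231 of 279, and FBXO44 121 of 256. FBXL15 had 4 models of 301, 297, 181 and 147 codons, and its short pair retained a 279 nt intron. Small internal changes were a 17-codon loss in FBXL5 (kept codons 1 to 28 and 46 to 692) and a 7-codon loss in FBXO21 (kept 1 to 442 and 450 to 629). FBXO16 skipped a 36 nt exon, the shortest cassette exon of any member.

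Among KLHL genes, 5 of the 6 other coding regions, which came from 4 genes, kept less than 50% of the longest. No all-gene value stands beside this count. KLHL7, a CUL3 receptor mutated in retinitis pigmentosa, had 1 full model of 587 codons and 3 short models of 167, 145 and 119 codons. All 3 short forms used another last exon, and none shared a codon after codon 147 of the longest. They shared codons 1 to 147, 41 to 147 and 49 to 147, and had 20, 38 and 20 codons of their own. KLHL22, a regulator of mitosis and nutrient signalling, had a short form of codons 448 to 635 of 635. KLHL13 lacked the first 26 of 640 codons in its second form. KLHL24 had 601 codons in 1 model and 167 in the other. These coding regions share no base: that of 167 codons ends at 183636864, and that of 601 begins at 183650357. KLHL18 paired 575 codons with a noncoding model.

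The 43 cassette exons of the members had a median of 121 nt (36 to 507 nt). Forms of an exon that differ at a splice site were counted apart, such as those of 205, 110 and 75 nt in RNF181. That of 507 nt, in RNF167, spans its exons of 240 and 121 nt with the intron between them retained. None of the 43 had 27 nt or fewer, the size of a microexon, beside 45 of 3571 over all genes. With so few over all genes, 43 exons cannot show a lack of them. The length was divisible by 3 in 16 of the 43 (37.2%, 24.4 to 52.1%), beside 40.4% over all genes. Of the 23 inside a coding region of at least 1 model, 8 were (34.8%, 18.8 to 55.1%; all genes 44.1%). Those 8 included the exons of RNF2, RNF135, RNF138, RNF7 and FBXO16 described above, where frame was kept. Exons in coding regions that were no multiple of 3 included 163 and 65 nt in RNF135, 152 nt in RNF14, 157 nt in RNF166 and 62 and 167 nt in RNF212, a ligase of meiotic recombination. RNF14 and RNF166 kept the stop and began further on, at codon 127 of 475 and at codon 110 of 238.

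A coding region that ends over 50 nt before the last junction of its exons is the usual mark of a candidate for nonsense-mediated decay, a pathway that degrades mRNAs with early stops. It was present in 6 of the 236 coding models (2.54%, 1.17 to 5.43%), in 5 genes, against 2.44% in protein-coding genes. They were 2 models of FBXL15, with stops 551 nt upstream of the last junction, and 1 each of TRIM69 and RNF7 (above), RNF170 (117 codons, 82 nt) and RNF181 (139 codons, 80 nt). Decay itself was not measured.

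Beyond the stop, 8 of 39 members with models that share a stop position (20.5%, 10.8 to 35.5%) had 3′ untranslated regions that differed by at least 100 nt, against 19.2% of all such genes. FBXO36 had 330 and 2232 nt, FBXO22 25 and 1504 nt, RNF216 203 and 1668 nt, and RNF2 755 and 1874 nt. RNF138 spanned 1526 to 2372 nt, RNF7 424 to 1124 nt, RNF34 767 to 1135 nt and RNF10 217 to 501 nt. In RNF2, RNF216, RNF7, FBXO22 and FBXO36 the longest region went with the longest coding region. In RNF10 and RNF34 it did not: RNF10 had 501 nt behind 798 codons and 217 nt behind 803, and RNF34 had 1135 nt behind 373 codons and 767 nt behind 374. In RNF138, 4 models lay between 1526 and 1531 nt and 1 at 2372 nt. That 1 had the longest coding region, of 246 codons, which was also in a model with 1529 nt.

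**Figure D5:**
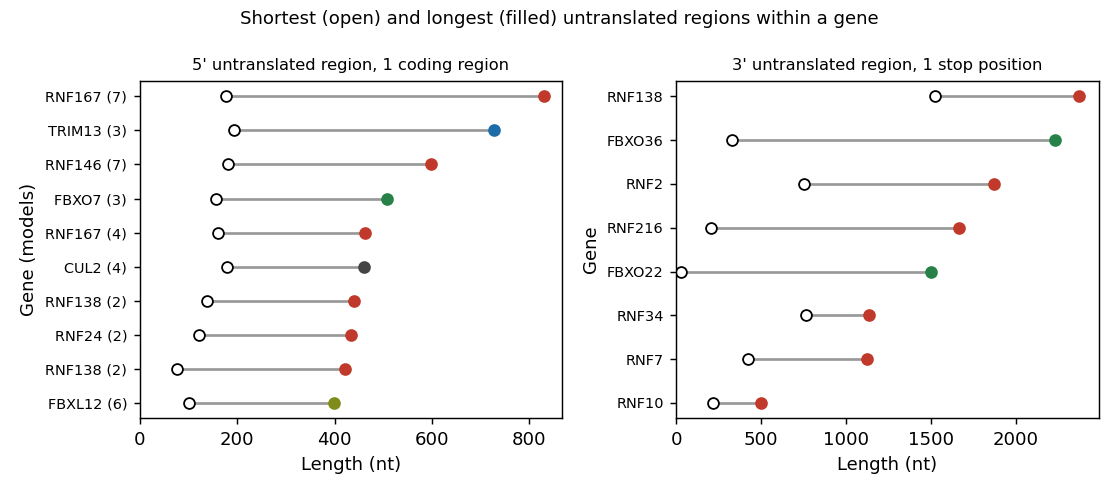
Shortest (open) and longest (filled, coloured by family) untranslated region, in nt on the horizontal axis. Left, 5′ regions of models that share 1 coding region, with the number of models in brackets; right, 3′ regions of models that share 1 stop position, in each case with a difference of at least 100 nt. RNF167 reaches 829 nt on the left and RNF138 2372 nt on the right.

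The first bases of member models lay close to RefSeq's. Of 194 models of the 99 members with a promoter entry, 159 (82.0%, 75.9 to 86.7%) began within 50 nt of a RefSeq start, against 80.6% over all genes. Where a gene has several RefSeq starts the nearest was taken, which can raise such shares. RNF220 models that began at 44405173 and 44631968, for example, lay 13 and 0 nt from a start. Among the exceptions, KLHL5 began 17366 nt and TRIM69 7470 nt upstream, and KLHL15 1897 nt and KLHL12 1359 nt downstream. In the 300 nt windows of the 99 members (250 nt before to 50 nt after the start) the median GC content was 66.3% with 27 CG dinucleotides, beside 65.3% and 26 for protein-coding genes with a model. Windows were searched on both strands for short exact motifs, and an overlap of 2 motifs was counted for each. A GC box, GGGCGG, was in 69.7% of member windows (71.6% of windows of protein-coding genes with a model, 44.6% of all 27305 windows). CCAAT was in 34.3% (38.5% and 35.7%), TATAAA in 3.03% (5.00% and 12%) and the ETS-type CCGGAAG in 16.2% (21.8% and 10.7%). TGACGTCA was in 4 windows, 4.04% (3.54% and 1.98%).

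Partners and relatives of these ligases were looked up in the same catalogue, where 42.4% of all protein-coding genes had a model. RNF7, a member itself, is among the cullin genes, and RBX1 is in both that list and the list of relatives. Of 24 E1 and E2 enzymes, which activate and carry ubiquitin, 23 had a model (95.8%, 79.8 to 99.3%), UBE2R2 being the exception. Of 18 genes for the cullin core, adaptors and the NEDD8 pathway that activates cullins, 15 had one (83.3%, 60.8 to 94.2%). SKP1 had 1 model of 164 codons, DDB1 1 of 1141 codons, RBX1 2 models with 1 coding region of 109 codons, and ELOC 4 models with 2 coding regions. CAND2, DCUN1D3 and NAE1 had none, and the 4 models of NEDD8 carried no coding region. Of 32 relatives under other names 23 had a model (71.9%, 54.6 to 84.4%). SKP2, the F-box receptor for p27, had 6 models with 6 coding regions, and BTRC none. Of 20 HECT and RBR ligases, which pass ubiquitin through a cysteine of their own, 8 had one (40%, 21.9 to 61.3%), an interval that holds the share of all protein-coding genes. Of marker genes, 7 of 8 for pluripotent cells had a model (LIN28A did not) and 5 of 9 for neural progenitors (SOX1, SOX2, HES5 and LHX2 did not). SOX1 and SOX2 are intronless genes, so models of at least 2 exons do not cover them. Of 8 markers of other cells, AFP, COL1A1 and PDGFRA had a model, at unknown abundance.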

How the data were processed

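Per the labels' protocols, polyadenylated RNA of each fraction was amplified by 15 cycles of PCR, or 17 for monosomes, into libraries that keep the strand. Long reads came from R2C2, in which circular copies of a cDNA are read repeatedly. The authors deposited positions (in nt, counted from 1) of transcripts, exons and coding regions, and each line names PacBio. It is not stated from which libraries they were made. STAR 2.7.8a and Salmon 1.9.0 appear, with no stated use, in the submitters' processing notes. Not given in the sources used here are the model builder, coding-region caller, filters and build. Scaffold names and start positions match GRCh38.

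Members, gene lists and named genes were chosen with earlier results of these data known. Named by rule were, per family, the 3 members with most models, up to 15 members (by number of models, ties by symbol) with a cassette exon in a coding region, those with an early stop or the largest 3′ differences, and the cullins; others were picked after their values were seen. Differences between models were found with Python 3.11.15, checked on toy models with known answers. Intervals came from scipy 1.17.1. Codon counts include the last deposited codon. Reads, protein sequences and values per library were not used here.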

Additional observations from a re-analysis of the deposited data

How the results depend on the processing

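Of 15 alternatives, 13 left the value within its interval or spread, or the count within 1.5 times; the settings covered which models and members count, coding regions at a model's edge, the distance from stop to junction, the definition of skipping and the smallest 3′ difference. The exceptions asked for more models. The share of RefSeq's family genes with at least 2 models was 19.5% (52 of 267), against 45.3% with at least 1. With inclusion and skipping each in at least 2 models, 8 cassette exons were left of 43. Both exceptions follow from requiring more models. For models per gene the spread was the SD between genes, 1.71, a wide limit beside a mean of 2.02. The alternatives there, with means of 1.93 and 2, could hardly have passed out of it. The search for RING motifs was not run, as no protein sequences were used here. No paired analysis was possible because the models carry no value per library. Depth is unknown, so a missing model or exon form cannot be told from one that was not sampled.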
